A study of Homo sapiens with 33 samples.

Results

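The desmosome components described here were 10 genes, chosen by symbol from the 56470 gene symbols of the count table. They encode the desmogleins DSG1, DSG2 and DSG3, the desmocollins DSC2 and DSC3, plakoglobin (JUP), the plakophilins PKP1, PKP2 and PKP3, and desmoplakin (DSP). Bulk RNA sequencing was performed on SCC1, SCC6 and SCC25, established cell lines of head and neck squamous cell carcinoma (HNSCC). PBS-treated controls were collected on days 0 to 5 and cells treated with 100 nM cetuximab, an antibody that blocks the epidermal growth factor receptor (EGFR), on days 1 to 5. There were 33 libraries, with 1 for each line, treatment and day, except that for cetuximab-treated SCC6 the labels give day 2 for 2 libraries (2a and 2b here) and day 1 for none. Each line was a single culture model with no genotype change given, the medium was renewed every day, and since the labels name no separate cultures of 1 day, days 1 to 5 served as the replicates of a group and p-values measured only the spread between these libraries.

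Desmosomes are junctions that fasten neighbouring epithelial cells and tie them to the keratin cytoskeleton. Desmogleins and desmocollins are the cadherins that bind across the gap between cells, plakoglobin and the plakophilins are armadillo-repeat proteins on the inner side of the plaque, and desmoplakin connects the plaque to keratin filaments. DSG2, DSC2 and PKP2 are the widely distributed members of their families, also found in simple epithelia and heart muscle. DSG1, DSG3, DSC3 and PKP1 are characteristic of stratified squamous epithelium, where DSG3 and DSC3 are strongest in the lower layers and DSG1 and PKP1 in the upper ones.

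The estimated counts, inferred by the authors with Salmon and imported with tximport, were scaled with TMM factors and are given as CPM, counts relative to the effective library size. Total counts per library ranged from 28508758 to 80727478. Libraries of 1 line correlated with a mean Pearson r of 0.947 to 0.982, and libraries of different lines with 0.75 to 0.785, and no library stood with another line. The lines did not match every squamous marker, since SCC6 with PBS had 2.36 ± 0.548 CPM of KRT5 and 3.92 ± 1.78 of KRT14 (SD, n = 5), beside 5413 ± 684 and 3409 ± 539 in SCC25. Fibroblast markers summed to 51.8 to 72.7 CPM with PBS and 96.0 to 221.2 with cetuximab in SCC1, to 3.36 to 5.22 and 9.93 to 115.3 in SCC6, and to 178.6 to 228.8 and 291.6 to 458.3 in SCC25. Of the 8 markers, cetuximab raised 5 of the 5 tested in SCC1, 2 of 3 in SCC6 and 5 of 8 in SCC25, where THY1 was lower. Among all genes tested, 22.5%, 15.5% and 8.72% were higher in these lines, and 9.47% were lower in SCC25. None of the endothelial markers tested (2 in SCC1, 1 in SCC6 and 2 in SCC25, of 3) passed the test. Of the leucocyte markers, PTPRC did not exceed a group mean of 0.214 CPM and CD3E 0.0316, while CD68, which is also found outside leucocytes, fell in each line, from 34.96 ± 11.5 to 7.75 ± 1.16 CPM in SCC1, 17.1 ± 0.946 to 4.70 ± 1.36 in SCC6 and 201.1 ± 23.7 to 160.6 ± 11.1 in SCC25. The samples were established cell lines, and the paper reports short tandem repeat authentication of the parental lines. The part of other cell types in the results was not tested, and in bulk RNA fewer cells of a type and less RNA per cell cannot be told apart.

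The genes of the desmosomal cadherins lie side by side on chromosome 18. In GENCODE on GRCh37 the order was DSC3 (chr18:28569331-28622781), DSC2 (chr18:28638806-28682485), DSC1, DSG1 (chr18:28898123-28939209), DSG4, DSG3 (chr18:29027704-29058665) and DSG2 (chr18:29078140-29128971), over 559.6 kb, with the desmocollins on the minus and the desmogleins on the plus strand. The other members were DSP (chr6:7541571-7586947), JUP (chr17:39910856-39943183), PKP1 (chr1:201252580-201302121), PKP2 (chr12:32943679-33049732) and PKP3 (chr11:392614-404908). DSG4, the desmoglein of hair, had at most 3 counts in any library, and DSC1, the desmocollin of the upper epidermis, at most 19.2. DSG1 had 3.06 to 37.4 counts per library. It overlaps the antisense gene DSG1-AS1, which had 2 to 20 counts, and since no source used here gives the strand setting of the counting, reads of the pair may not be separated.

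Levels between genes were compared as CPM per kb of the canonical transcript. In SCC1 with PBS, JUP had 86.9 ± 3.6 CPM per kb, DSP 78.5 ± 6.8 and DSG2 67.5 ± 5.54, and each overlapped its neighbour in this order. PKP3 followed at 27.98 ± 4.53 and PKP2 at 12.2 ± 1.46, without overlap with the genes above them. DSC3, which overlapped PKP2, and DSG3, PKP1 and DSC2 had means from 10.1 down to 3.55 with overlapping neighbours, and DSG1 stood apart at 0.048 ± 0.0208. In SCC25 the same 3 genes led, DSG2 at 141 ± 6.74, JUP at 128 ± 22.7 and DSP at 121 ± 12.95, and here PKP1 came next at 64.0 ± 10.2, overlapping PKP3 at 58.4 ± 6.22. In SCC6, JUP reached 207 ± 71.9 and DSP came second with a range of 88.0 to 163.3, while DSG3, PKP1 and DSG1 were the lowest at 0.509 ± 0.232, 0.165 ± 0.0788 and 0.0306 ± 0.00755, of which DSG3 and PKP1 overlapped.

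The lines therefore began with different sets of desmosome genes. PKP1 had 0.397 to 1.54 CPM in the 5 PBS libraries of SCC6, 18.3 to 35.8 in SCC1 and 286.6 to 426.5 in SCC25, with no overlap between the lines. Its level in SCC6 was 375-fold below that in SCC25 (log2 -8.55 ± 0.30, edgeR quasi-likelihood adjusted p = 4.2e-20), and in SCC1 it was 13.4-fold below SCC25 (-3.75 ± 0.22, adjusted p = 9.6e-15). DSG3, the antigen of pemphigus vulgaris, ran from 1.52 to 4.41 CPM in SCC6, 37.2 to 63.0 in SCC1 and 175.4 to 320.1 in SCC25, again without overlap. It was 81.8-fold lower in SCC6 than in SCC25 (-6.35 ± 0.30, adjusted p = 5.3e-17) and 16.4-fold higher in SCC1 than in SCC6 (4.04 ± 0.28, adjusted p = 2.8e-13).

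DSC3 was likewise highest in SCC25, at 338 ± 30.8 CPM, beside 76.6 ± 16.3 in SCC1 and 51.7 ± 8.16 in SCC6. PKP2 went the other way. Its 5 PBS libraries held 97.5 to 145.2 CPM in SCC6, 43.2 to 56.1 in SCC1 and 52.0 to 57.0 in SCC25, so that SCC6 was 2.37-fold above SCC25 (log2 1.25 ± 0.10, adjusted p = 1.4e-12) and SCC1 and SCC25 did not differ past the threshold (-0.05 ± 0.10, adjusted p = 0.67). Of the 10 members, 9 differed between SCC1 and SCC6, 7 between SCC1 and SCC25, all lower in SCC1, and 9 between SCC6 and SCC25. The background was high, because 66.5%, 66.4% and 69.9% of all 21414 genes tested differed in these 3 comparisons, and the counts of members do not stand far from it.

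The calls of DSG2 and PKP3 between lines rested on small differences. DSG2 in SCC1 against SCC6 (-0.25 ± 0.10, adjusted p = 0.023) lost its call without PBS day 1 or 2 of SCC1 or PBS day 2 or 3 of SCC6, with adjusted p from 0.050 to 0.099. PKP3 in SCC1 against SCC6 (-0.55 ± 0.21, adjusted p = 0.027) lost it without PBS day 1 or 5 of SCC1 or day 1 of SCC6, with adjusted p from 0.052 to 0.28, and with day as a replicate block (-0.50, adjusted p = 0.054). PKP3 in SCC6 against SCC25 (-0.51 ± 0.21, adjusted p = 0.037) lost it without PBS day 2, 3, 4 or 5 of SCC6 or day 2, 4 or 5 of SCC25, with adjusted p from 0.050 to 0.095. DSG1 in SCC1 against SCC6 (0.63 ± 0.31, adjusted p = 0.070) passed the threshold without PBS day 2 of SCC1 (adjusted p = 0.023) or day 5 of SCC6 (0.046), and in SCC1 against SCC25 (-0.36 ± 0.26, adjusted p = 0.23) without PBS day 1 of SCC1 (0.040).

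**Figure D1:**
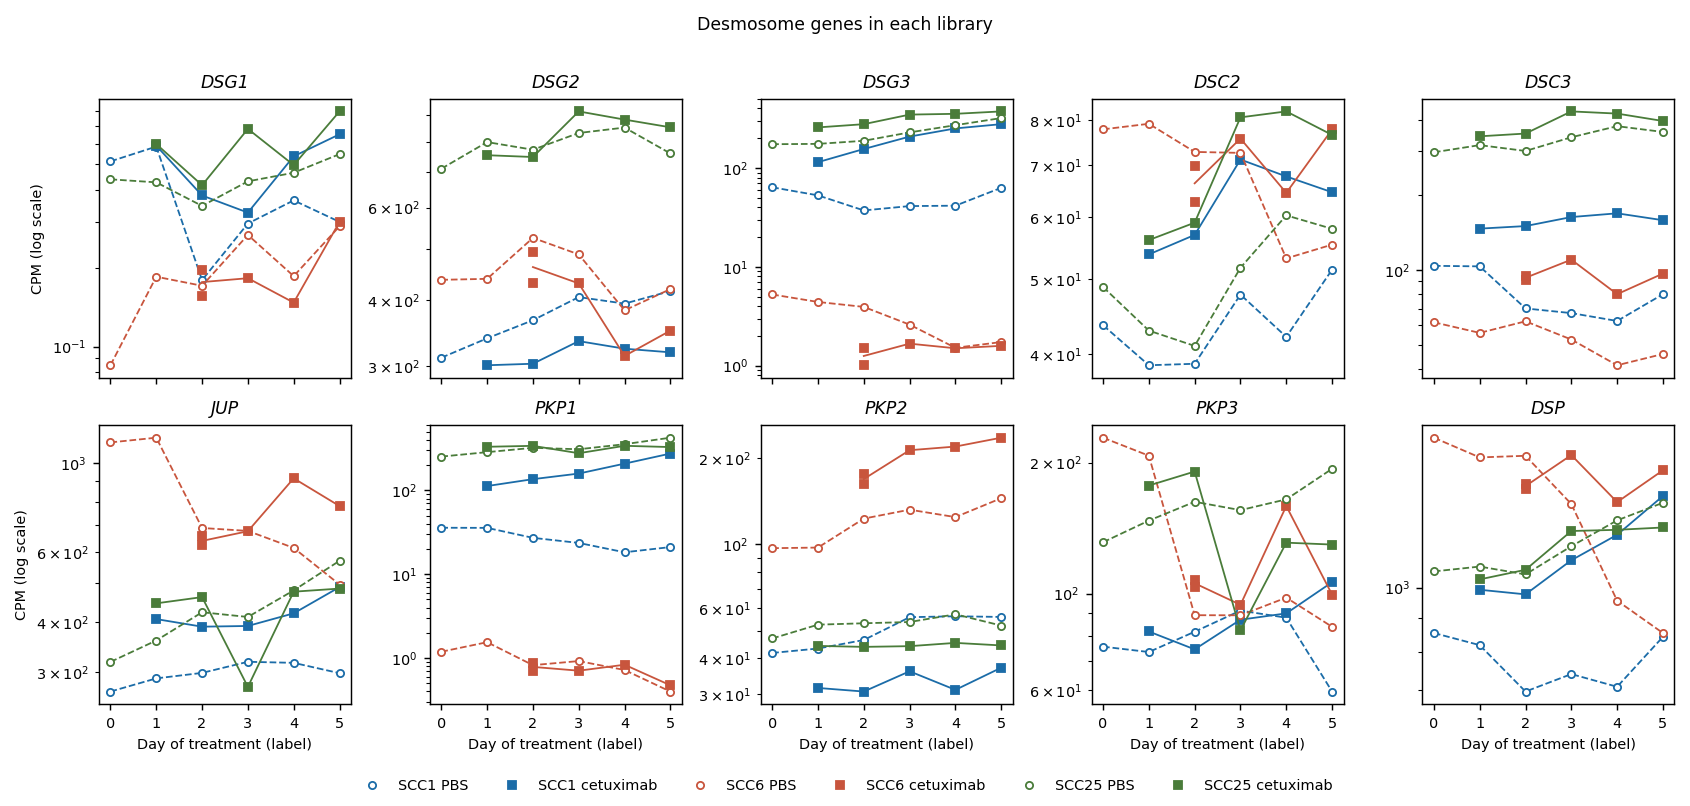
CPM of the 10 desmosome genes on a log axis against the labelled day, with open circles and dashed lines for PBS, filled squares and solid lines for cetuximab, and a colour for each line. Where 2 libraries share a day the line runs through their mean. PKP1 and DSG3 of cetuximab-treated SCC1 climb from day 1 to day 5, while both genes stay at or below 5.26 CPM in SCC6.

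The first comparison asked how EGFR blockade changed these genes in SCC1. Of the 10 members, 6 rose and 2 fell, and PKP1 and DSG3 rose most. Among all 17984 genes tested, 22.5% were higher and 22.0% lower under cetuximab, and the median log2 fold change was 0.55 over the members and 0.02 over all genes. PKP1, the plakophilin of stratified epithelium, had 35.8, 27.2, 23.6, 18.3 and 21.1 CPM on PBS days 1 to 5 and 112.9, 136.4, 159.1, 209.0 and 275.7 under cetuximab. Every treated library was above every control, and the treated values rose with each day. The difference was 7.18-fold (log2 2.84 ± 0.29, adjusted p = 5.2e-05).

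DSG3 had 52.9, 37.2, 41.2, 41.6 and 63.0 CPM with PBS and 114.6, 155.6, 207.9, 251.5 and 277.7 with cetuximab in SCC1. The groups did not overlap and here too each treated day was above the day before, which gave 4.32-fold (log2 2.11 ± 0.26, adjusted p = 0.00017). DSC3, the desmocollin with the same distribution in epidermis, was at 103.4, 70.2, 67.2, 62.5 and 80.0 CPM with PBS and at 146.4, 149.9, 162.9, 168.6 and 158.2 with cetuximab. It was 2.07-fold higher (log2 1.05 ± 0.12, adjusted p = 4.3e-05), with the treated libraries close together from day 1 onwards.

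The 3 genes that link the cadherins to keratin or accompany DSC3 rose less in SCC1. DSP was at 818, 696, 740, 708 and 842 CPM with PBS and 992.5, 977, 1100, 1202 and 1376 with cetuximab, without overlap (log2 0.59 ± 0.10, adjusted p = 0.00032). JUP, which serves both desmosomes and adherens junctions, went from 304.5 ± 12.6 to 420 ± 40.9 CPM (0.48 ± 0.06, adjusted p = 4.4e-05), and DSC2 from 43.8 ± 5.6 to 62.8 ± 7.3 (0.54 ± 0.09, adjusted p = 0.00046). None of the treated libraries reached down to a control in either gene.

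PKP2 and DSG2 fell in SCC1. PKP2 had 43.2, 46.3, 55.7, 56.1 and 55.8 CPM with PBS and 31.5, 30.6, 36.0, 31.0 and 37.0 with cetuximab, all below the lowest control (log2 -0.61 ± 0.08, adjusted p = 6.7e-05). DSG2 had 339 to 416.5 CPM with PBS and 301 to 335 with cetuximab, again without overlap (-0.26 ± 0.06, adjusted p = 0.0020). DSG1 and PKP3 did not pass the test, with 0.55 ± 0.31 (adjusted p = 0.16) and 0.18 ± 0.12 (adjusted p = 0.24) and overlapping libraries. Without PBS day 1, DSG1 passed it (0.81, adjusted p = 0.037).

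In SCC1 the flow cell, read from the library names, moved with the treatment. All cetuximab libraries and PBS of day 5 were on flow cell C and PBS of days 1 to 4 on flow cell B. Flow cell C alone held 1 PBS library, which gives no spread of the controls and allows no test. The log2 ratios of mean CPM there were 3.08 for PKP1, 1.68 for DSG3, 0.97 for DSC3, -0.75 for PKP2 and -0.40 for DSG2. A fit with the flow cell as a covariate takes its treatment term from the same 1 PBS library, so only its values are given. They were 0.31 for DSC2, 0.44 for DSP and 0.58 for PKP3. That PBS library had the lowest PKP3 of the SCC1 controls of days 1 to 5, at 59.55 CPM. In the unpaired fit without the flow cell, PKP3 was called in SCC1 after the GC trend was removed (0.25, adjusted p = 0.0041). It was also called with day added as a replicate block (0.25, adjusted p = 0.0015), and not with the block alone (0.18, adjusted p = 0.33).

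In SCC6, DSC3 and PKP2 rose, DSG3 fell and the other 6 members tested did not pass the threshold. This is 2 of 9 higher and 1 of 9 lower, beside 15.5% and 14.5% of all 17387 genes, so the count of members was near the background. DSC3 was at 56.0, 62.3, 52.7, 41.6 and 46.1 CPM on PBS days 1 to 5 and at 94.8 (2a), 91.3 (2b), 110.0 (day 3), 80.0 (day 4) and 96.8 (day 5) with cetuximab. The groups did not overlap (log2 0.84 ± 0.13, adjusted p = 0.00054). PKP2 was at 97.5, 123.2, 132.4, 124.7 and 145.2 CPM with PBS and at 176.8, 162.2, 213.8, 220.2 and 236.5 with cetuximab. Every treated library was again above every control (0.67 ± 0.13, adjusted p = 0.0024), the reverse of the fall of PKP2 in SCC1.

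DSG3 in SCC6 was low throughout, at 4.41, 3.93, 2.60, 1.52 and 1.73 CPM with PBS and 1.01 (2a), 1.499 (2b), 1.67, 1.5 and 1.59 with cetuximab. The groups overlapped, because the controls of days 4 and 5 were as low as the treated libraries, and the fall of 0.99 ± 0.30 on the log2 scale had an adjusted p of 0.026. This call was lost without PBS day 2 (log2 -0.86, adjusted p = 0.069), without cetuximab 2a (-0.89, 0.058), day 4 (-1.0, 0.051) or day 5 (-1.02, 0.054), and with day as a replicate block (-0.74, 0.062), a fit in which PBS day 1 has no treated partner and adds nothing to the contrast. PKP1 was at most 1.54 CPM in every SCC6 library of days 1 to 5 and gave -0.34 ± 0.32 (adjusted p = 0.45). DSG1 was not tested in this comparison, as its counts were under the filter. With day as a replicate block DSG2 passed the test in SCC6 (-0.26, adjusted p = 0.023), where the unblocked fit gave -0.19 ± 0.14 (adjusted p = 0.33), the block with the GC trend removed -0.06 (0.45) and the flow cell as a covariate -0.03 (0.87).

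JUP and PKP3 in SCC6 moved with the flow cell. PBS of days 0 and 1, on flow cell C, had 1125 and 1156 CPM of JUP, beside 497 to 688 in PBS of days 2 to 5 and 622 to 675 in the cetuximab libraries 2a, 2b and day 3 on flow cell D, and 915 and 780 in cetuximab of days 4 and 5 on flow cell E. PKP3 had 228 and 207 CPM on flow cell C, 83.9 to 107.5 on D, and 158.9 and 99.4 on E. JUP and PKP3 have the highest GC content of the members, 61.9% and 68.8% of the transcript, and over 9810 genes the log2 change per 10 points of GC was 0.28 and 0.29 in the libraries on flow cell C, -0.28 to -0.05 on D, and 0.37 and 0.21 on E. The part of the flow cell and of GC content in these values was not tested. On the log2 scale the fold changes of JUP and PKP3 were -0.02 ± 0.20 (adjusted p = 0.94) and -0.04 ± 0.25 (adjusted p = 0.93). After the GC trend was removed with day as a replicate block they were -0.25 (adjusted p = 0.0059) and -0.49 (adjusted p = 0.019), and with the block alone 0.22 (adjusted p = 0.23) and 0.28 (adjusted p = 0.053).

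In SCC25, DSC2 rose and PKP2 fell. This is 1 of 10 members in each direction, beside 8.72% of all 19101 genes higher and 9.47% lower, which is the background. PKP2 was at 52.4, 53.0, 53.5, 57.0 and 52.0 CPM with PBS and at 44.2, 43.8, 44.1, 45.2 and 44.3 with cetuximab. The spread within either group was small and the groups did not overlap (log2 -0.26 ± 0.05, adjusted p = 0.0029). DSC2 was at 42.9, 41.0, 51.7, 60.3 and 58.0 CPM with PBS and 56.1, 59.0, 80.6, 82.0 and 76.5 with cetuximab. The groups overlapped, but the treated library was above the control on each of the 5 days (0.49 ± 0.14, adjusted p = 0.031). The call of DSC2 was lost without PBS day 1, 2 or 3 or cetuximab day 3, 4 or 5, with adjusted p from 0.061 to 0.078.

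DSC3 and DSG3 in SCC25 were above the control of the same day on 5 of 5 days, by log2 ratios of 0.12 to 0.34 and 0.22 to 0.60, and missed the threshold (0.21 ± 0.08 and 0.45 ± 0.17, each with an adjusted p of 0.085). With day as a replicate block both passed it (0.21, adjusted p = 0.0089, and 0.47, adjusted p = 0.00088), which made 4 members called, beside 26.8% of all genes under this block. DSC3 also passed without cetuximab day 1 (0.27, adjusted p = 0.039) and DSG3 without PBS day 5 (0.60, adjusted p = 0.021). PKP1 and DSP were 341 ± 54.3 and 1177 ± 126 CPM with PBS and 324 ± 26.4 and 1153 ± 98.5 with cetuximab, a difference of -0.06 ± 0.10 (adjusted p = 0.72) and -0.02 ± 0.08 (adjusted p = 0.88) on the log2 scale. DSG2, the most abundant desmoglein, gave 0.06 ± 0.06 (adjusted p = 0.58) and DSG1 0.44 ± 0.22 (adjusted p = 0.18).

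The cetuximab library of day 3 in SCC25 stood apart by over 0.71 of the range for JUP and PKP1. It had 275.8 and 278.3 CPM, beside 446 to 485 and 329.7 to 341.3 in the other 4. PKP3 was also lowest there, at 82.3 beside 129.6 to 190.7 CPM, without a gap of that size. This library had the lowest slope on GC content of all libraries, -0.34, and the part of GC content was not tested. The fold changes of JUP and PKP3 in SCC25 were -0.06 ± 0.16 (adjusted p = 0.84) and -0.20 ± 0.19 (adjusted p = 0.50). In SCC25 flow cell A held every PBS library and the first 2 cetuximab days, and B the last 3. The flow cell therefore moved with the day among the cetuximab libraries, and with the treatment on days 3 to 5. On flow cell A alone, cetuximab of days 1 and 2 was set beside PBS of days 1 to 5. PKP2 was below every control in both cetuximab libraries (log2 ratio -0.28), and DSC2 overlapped (0.18). With the flow cell as a covariate DSC2 lost its call (0.19, adjusted p = 0.42). Neither of these DSC2 values was paired by day. On days 1 and 2, both on flow cell A, the same-day log2 ratios of DSC2 were 0.39 and 0.52, beside 0.39 to 0.64 over all 5 days. Flow cell B held no PBS library of this line, and the part of the flow cell was not tested. In SCC6, flow cell D held PBS of days 2 to 5 and cetuximab 2a, 2b and day 3. These libraries, not paired by day, gave log2 ratios of 0.96 for DSC3 and 0.49 for PKP2 without overlap, and -0.81 for DSG3 with overlap.

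**Figure D2:**
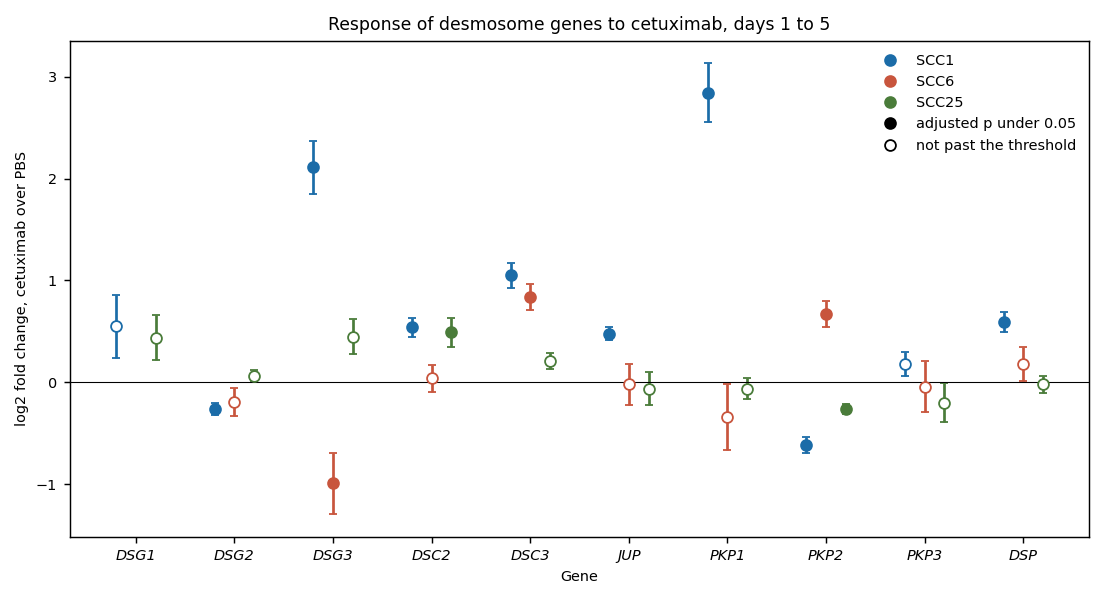
Log2 fold change of cetuximab over PBS for each desmosome gene and cell line, over days 1 to 5, with bars of 1 standard error of the edgeR fit. Filled points passed an adjusted p of 0.05 and open ones did not, and DSG1 was not tested in SCC6. PKP1 (2.84) and DSG3 (2.11) in SCC1 lie above all other points, and PKP2 is above 0 in SCC6 and below it in SCC1 and SCC25.

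Whether the lines responded differently was tested with interaction terms of line and treatment, fitted to all 30 libraries after day 0. It differed for 5 of the 10 members, PKP1 (adjusted p = 2.1e-08), PKP2 (7.1e-08), DSG3 (2.1e-06), DSC3 (0.00063) and DSP (0.039), beside 26.0% of all 21414 genes. For JUP (0.15), DSG2 (0.14), DSC2 (0.086), DSG1 (0.42) and PKP3 (0.64) a difference was not shown. The call of DSP was lost without SCC1 PBS day 2, 3 or 4, SCC1 cetuximab day 4 or 5, SCC25 PBS day 4 or 5 or SCC25 cetuximab day 1 or 2, with adjusted p from 0.062 to 0.091, and DSC2 gained a call without SCC6 PBS day 4 (0.045). With line and day as a replicate block 7 members differed, with DSC2 (0.016) and DSG2 (0.0032) added, and the share of all genes rose to 41.8%.

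Between pairs of lines, the responses of SCC1 and SCC6 differed for 3 members, beside 19.2% of all genes. PKP1 differed by 3.18 ± 0.40 (adjusted p = 1.3e-06), DSG3 by 3.07 ± 0.38 (9.2e-07) and PKP2 by -1.31 ± 0.14 (3.6e-08), as differences of log2 fold changes. With line and day as a replicate block DSC2 was added (0.39, adjusted p = 0.013), beside 30.9% of all genes. Without SCC6 PBS day 5 the count was 5, with DSP among them (0.49, adjusted p = 0.032), and 4109 of all genes were called, beside 4103 with that library. The responses of SCC1 and SCC25 differed for 4 members, beside 8.5% of all genes, namely PKP1 (2.89 ± 0.29, 1.5e-07), DSG3 (1.64 ± 0.32, 0.0010), DSC3 (0.83 ± 0.16, 0.00088) and DSP (0.59 ± 0.18, 0.036). DSP lost this call without any of the same libraries as above (adjusted p from 0.064 to 0.091), and with line and day as a replicate block 7 members differed, beside 13.9% of all genes.

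SCC6 and SCC25 differed for 3 members, beside 17.5% of all genes, PKP2 (0.94 ± 0.14, adjusted p = 1.1e-05), DSC3 (0.64 ± 0.16, 0.0061) and DSG3 (-1.42 ± 0.38, 0.0089). The PKP1 response of these 2 lines was not shown to differ (-0.29 ± 0.39, 0.67), and 5 members differed with line and day as a replicate block, beside 33.5% of all genes. DSC3 in SCC1 and SCC6, with rises of 1.05 and 0.84, was not shown to differ either (0.19 ± 0.16, 0.48). Each of these comparisons shares a line with another, so they do not stand alone. In each line the flow cell moved in part with the treatment, and its part in these differences was not tested. With the flow cell as a covariate DSG3 lost its difference in response between SCC25 and both other lines.

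The make-up of each family changed with the members. The share of DSG3 among the 3 desmogleins, in CPM per kb, was 11.1% ± 2.23 with PBS and 38.5% ± 7.65 with cetuximab in SCC1, where the ranges of 9.39% to 13.7% and 27.9% to 47.0% did not overlap. In SCC25 it was 23.0% ± 4.6 and 28.2% ± 1.89, with overlap, and in SCC6 DSG2 held 99.3% ± 0.252 and 99.6% ± 0.113. PKP1 made up 10.7% ± 3.18 of the plakophilins of SCC1 with PBS and 45.1% ± 6.29 with cetuximab, while PKP2 went from 27.3% ± 4.29 to 11.1% ± 1.85. SCC25 held 47.2% ± 1.75 PKP1 with PBS and 50.6% ± 4.98 with cetuximab, and SCC6 held 0.23% ± 0.0716 and 0.155% ± 0.0421. DSC3 was the larger share of the desmocollins in every group, from 55.9% ± 2.04 in SCC6 with PBS to 91.6% ± 0.652 in SCC25 with PBS, and in SCC6 it reached 68.6% ± 1.93 with cetuximab without overlap. In SCC6 with PBS this order depended on the transcript lengths used, 12331 bases for DSC2 and 7583 for DSC3. Before division by length DSC2 was higher there, at 66.6 ± 11.6 CPM beside 51.7 ± 8.16. These shares are descriptions with no test.

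Levels of cetuximab-treated SCC1 were also set beside untreated SCC25, with no test. DSG3 in treated SCC1 (114.6 to 277.7 CPM) overlapped SCC25 with PBS (175.4 to 320.1). PKP1 in treated SCC1 (112.9 to 275.7) remained below each SCC25 control (286.6 to 426.5), and DSC3 (146.4 to 168.6) below 299.5.

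The day of treatment was examined next. In SCC1, log2 ratios to the PBS library of the same day rose for PKP1 from 1.66 on day 1 to 3.70 on day 5. In a fit of 4 groups PKP1 was 4.70-fold higher on days 1 to 3 (log2 2.23 ± 0.20, adjusted p = 0.00011) and 12.4-fold higher on days 4 and 5 (3.64 ± 0.25, adjusted p = 3.2e-05). The difference between these periods was 1.41 ± 0.30 and did not pass edgeR's test (adjusted p = 0.63), whereas DESeq2 gave 1.40 with an adjusted p of 0.00061. In SCC6, DSC3, PKP2 and DSG3 passed on days 1 to 3, 3 of 10 members beside 20.3% of all genes, with 0.74 ± 0.11 (adjusted p = 0.0013), 0.60 ± 0.13 (0.0076) and -1.45 ± 0.26 (0.0030). On days 4 and 5, DSC3 (1.00 ± 0.14, 0.00054), PKP2 (0.74 ± 0.16, 0.0042), DSP (0.64 ± 0.12, 0.0025) and DSC2 (0.38 ± 0.13, 0.046) were above PBS, 4 of 10 beside 37.5% of all genes, while DSG3 gave -0.09 ± 0.31 (0.85). Treated DSP had 1437 (2a), 1412 (2b) and 1587 CPM (day 3), then 1347 and 1505, while PBS fell from 1574 on day 1 to 853.5 on day 5. Treated DSC2 had 62.8, 69.8 and 75.7 CPM, then 64.5 and 77.8, while PBS fell from 79.1 to 55.3. DSP and DSC2 had been at -0.07 ± 0.10 (0.68) and -0.16 ± 0.11 (0.35) on days 1 to 3. The difference between the periods itself, the response on days 4 and 5 against days 1 to 3, was 1.36 ± 0.41 for DSG3 (adjusted p = 0.096), 1.02 ± 0.32 for JUP (0.097), 0.71 ± 0.16 for DSP (0.096) and 0.53 ± 0.17 for DSC2 (0.099), and none of these passed.

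By edgeR 0 genes were called in the period test of any line, which is 0.0% of 19660, 19150 and 20740 genes in SCC1, SCC6 and SCC25. At an unadjusted p under 0.05 there were 1394, 5596 and 588 genes, and DESeq2 called 31, 2838 and 3. In SCC6, with day as a replicate block 3 members were called, beside 13.9% of all genes, DSC2 (0.45, adjusted p = 0.046), DSP (0.65, 0.022) and JUP (0.69, 0.0058), and DESeq2 called these and DSG3 (1.33, 0.031). Without SCC6 PBS day 1, DSP (0.65, 0.022) and JUP (0.69, 0.020) were called, among 1583 genes in all. Without SCC6 PBS day 3, DSP (0.79, 0.049) and DSG3 (1.56, 0.049) were called, among 639 genes. The cetuximab libraries of days 4 and 5 in SCC6 were on a flow cell of their own, so period and flow cell cannot be told apart there.

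**Figure D3:**
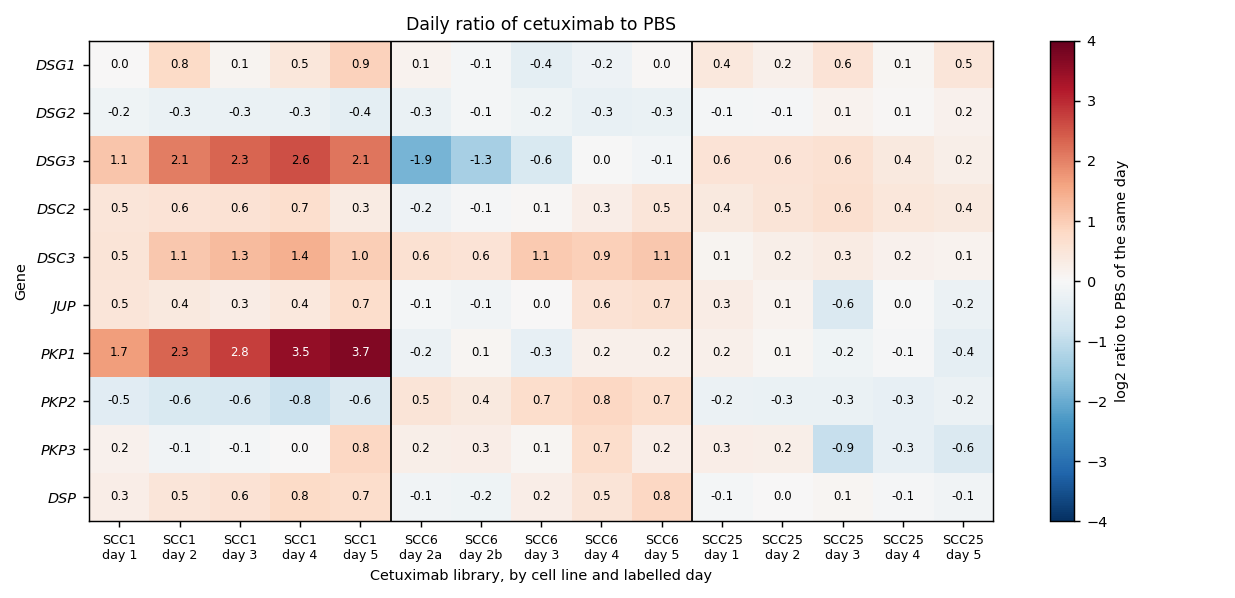
Log2 ratio of each cetuximab library to the PBS library of its labelled day, with 0.1 CPM added to both, by desmosome gene and library. Red is higher under cetuximab and blue lower. The PKP1 row of SCC1 runs from 1.66 on day 1 to 3.70 on day 5, and DSG3 of SCC6 spans -1.86 (2a) to -0.01.

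The members also changed over the culture days without cetuximab, and a difference between the lines in these slopes was not tested. In SCC6 with PBS, 7 of 9 members tested fell and 1 rose per day of culture, beside 21.8% of all 14960 genes falling and 16.5% rising. DSP dropped from 1686 CPM on day 0 through 1574, 1583, 1338 and 955 to 853 on day 5 (log2 -0.22 ± 0.03 per day, adjusted p = 0.0022). DSG3 dropped from 5.26 to 1.73 CPM (-0.39 ± 0.06, 0.0024), JUP from 1125 to 497 (-0.26 ± 0.04, 0.0018) and PKP3 from 228 to 83.9 (-0.31 ± 0.06, 0.0069). PKP1 (-0.31 ± 0.08, 0.020), DSC2 (-0.13 ± 0.03, 0.011) and DSC3 (-0.11 ± 0.03, 0.021) fell as well, and PKP2 rose from 97.1 to 145.2 CPM (0.11 ± 0.03, 0.012). Days 0 and 1 were on flow cell C and days 2 to 5 on D. Between days 2 and 5, within flow cell D, DSP went from 1583 to 853 CPM and DSG3 from 3.93 to 1.73, while PKP3 went from 89.2 to 83.9.

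With every day, 2470 of all genes rose and 3258 fell in SCC6. Without day 0, 5 members and 2077 of all genes were called in SCC6, and DSC3 (adjusted p = 0.083), PKP2 (0.087) and PKP3 (0.065) were not. Without PBS day 5 there were 4 members and 3237 genes in all, and DSC2 (0.061), DSC3 (0.060), PKP1 (0.12) and PKP2 (0.076) were not called. PKP1 was lost without PBS day 1 (0.055) and DSC3 without PBS day 4 (0.060).

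In SCC25 with PBS, 6 of 10 members rose with the day and 0 fell, beside 8.79% and 4.9% of all 17261 genes. All of these PBS libraries were on 1 flow cell. DSG3 went from 174.1 CPM on day 0 through 175.4, 188.5, 229.3 and 271.1 to 320.1 on day 5 (log2 0.19 ± 0.02 per day, adjusted p = 2.3e-05). JUP went from 318 to 569 CPM (0.15 ± 0.02, 7.3e-05), PKP1 from 253.7 to 426.5 (0.13 ± 0.02, 0.00031) and PKP3 from 131.2 to 193.5 (0.09 ± 0.02, 0.0040). DSP (0.07 ± 0.02, 0.021) and DSC3 (0.07 ± 0.02, 0.034) rose less. DSC3 lost its call without day 0, 1, 3, 4 or 5 (adjusted p from 0.053 to 0.11), DSP without PBS day 1, 4 or 5 (0.063 to 0.16) and PKP3 without PBS day 5 (0.085).

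In SCC1 with PBS, PKP1 fell (-0.20 ± 0.03, adjusted p = 0.025) and PKP2 rose (0.09 ± 0.02, 0.050) over the days, 1 of 9 members in each direction beside 1.35% falling and 2.6% rising of all 16315 genes. PKP1 went from 35.9 CPM on day 0 to 18.3 on day 4 and 21.1 on day 5. Its call was lost without day 0 (0.10), day 1 (0.12) or day 4 (0.080), and that of PKP2 without day 0 (0.20), 1 (0.18), 2 (0.074), 3 (0.076) or 4 (0.14). Without day 5 the count was 4, and 1779 of all genes were called, where the fit with every day had 425 rising and 220 falling.

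Reference sequences are shown for members that moved together or lie side by side. RefSeq promoter windows on GRCh38.p14 were found for 8 of the 10 members, 10 windows in all, and not for PKP2 and PKP3. The windows of DSG1 and DSG3, neighbours of DSG4 in the cluster, share a run of 20 bases, which starts 120 bases before the start of DSG1 and 78 bases before that of DSG3. Among 35116 promoter windows only these 2 held it, and the next longest run shared between 2 members was 12 bases, in DSP and DSG2. The 250 bases before each start are given 5′ to 3′ on the strand of the gene, with the shared run in capitals. DSG1 lies at chr18:31317910-31318159 and DSG3 at chr18:31447491-31447740, both on the plus strand.
DSG1: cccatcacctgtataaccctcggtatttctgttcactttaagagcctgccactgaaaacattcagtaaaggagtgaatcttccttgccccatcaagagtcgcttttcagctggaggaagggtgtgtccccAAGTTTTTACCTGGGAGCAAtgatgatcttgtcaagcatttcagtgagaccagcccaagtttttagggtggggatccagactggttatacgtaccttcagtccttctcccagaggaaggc
DSG3: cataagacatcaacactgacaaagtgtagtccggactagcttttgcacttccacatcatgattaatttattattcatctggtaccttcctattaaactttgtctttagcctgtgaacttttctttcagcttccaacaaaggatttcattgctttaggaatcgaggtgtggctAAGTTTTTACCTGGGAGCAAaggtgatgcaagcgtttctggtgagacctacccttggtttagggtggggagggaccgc
The share of G and C was 48.0% in the DSG1 window and 42.8% in that of DSG3, the lowest of the members. DSG1 was at most 0.797 CPM in any library while DSG3 reached 373.8, so the shared run did not go with a shared level.

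For contrast, the windows of DSG2, the third desmoglein of the cluster that was abundant in every line and fell in SCC1, and of PKP1, the member with the largest rise, are given with motif letters in capitals. The motifs searched on both strands were AP-1 (TGANTCA), TFAP2 (GCCNNNGGC), an E-box (CACCTG), a GC box (GGGCGG), Grainyhead (AACNGGTT) and a TATA box (TATAAA). DSG2 lies at chr18:31497927-31498176 and PKP1 at chr1:201283256-201283505, both on the plus strand.
DSG2: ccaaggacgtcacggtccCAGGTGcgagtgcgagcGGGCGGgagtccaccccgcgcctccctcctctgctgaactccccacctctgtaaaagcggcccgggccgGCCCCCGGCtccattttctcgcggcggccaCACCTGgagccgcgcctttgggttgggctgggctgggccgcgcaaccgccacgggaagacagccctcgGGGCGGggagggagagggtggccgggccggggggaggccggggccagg
PKP1: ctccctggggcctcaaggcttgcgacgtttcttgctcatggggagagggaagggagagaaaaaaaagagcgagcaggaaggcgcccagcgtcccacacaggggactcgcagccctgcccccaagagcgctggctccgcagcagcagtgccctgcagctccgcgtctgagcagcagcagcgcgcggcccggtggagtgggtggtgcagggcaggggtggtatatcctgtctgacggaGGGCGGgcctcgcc
The DSG2 window held 2 E-box, 2 GC box and 1 TFAP2 matches and was 75.2% G and C, and that of PKP1 held 1 GC box 14 bases before the start and was 67.6% G and C.

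Of the 10 windows, the GC box was in 6, the E-box in 5 and the TFAP2 letters in 4, beside 42.6%, 17.5% and 19.8% of all promoter windows. DSC2 and JUP each had 2 windows. Counted by gene, the GC box was in 5 of 8, the E-box in 5 and the TFAP2 letters in 3. The AP-1, Grainyhead and TATA letters were in none of the 10 windows and in 6.57%, 1.49% and 10.7% of all. DSG3 and DSC3, which rose together in SCC1, held none of the 6 motifs. A match or its absence describes only the letters of these windows.

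Within SCC1, the log2 levels of DSG3 and DSP had a Pearson r of 0.98 over the 11 libraries, DSG3 and PKP1 0.97, and DSC3 and PKP1 0.95, while PKP2 had -0.93 with DSC3 and 0.91 with DSG2. Over all 33 libraries, with the mean of each line removed, DSG3 and PKP1 had 0.85, JUP and PKP3 0.80, and DSG3 and PKP2 -0.72. The mean profile of the 9 members with enough counts was most like that of HES2 (r = 0.947), CDR2L (0.922), KRT14 (0.914), TRIM29 (0.908) and KRT16 (0.899) among 9919 genes. KRT14 and KRT16 are keratins of basal and activated keratinocytes. Within single lines these values ran lower in places, with 0.70 for HES2 and 0.60 for CDR2L in SCC25, and 0.57 for TRIM29 and 0.71 for KRT16 in SCC6. The libraries share treatment, day and flow cell, and these values are descriptions with no test.

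Other genes of cell junctions were taken from lists. The counts of every list stand beside 22.5% of all genes higher and 22.0% lower in SCC1. These shares were 15.5% and 14.5% in SCC6, and 8.72% and 9.47% in SCC25. Of the other genes of the desmosome and its plaque, 3 of 6 tested rose in SCC1, 1 of 6 in SCC6 and 2 of 7 in SCC25, where 1 fell. PERP, a membrane protein of desmosomes, rose most in SCC1, from 282 ± 46.3 to 912 ± 199 CPM (log2 1.71 ± 0.17, adjusted p = 2e-05), followed by the plakin periplakin (PPL, 1.23 ± 0.14, 3.1e-05) and KAZN (0.66 ± 0.09, 4.8e-05). In SCC25 DSC1 rose at a low level, from 0.0808 ± 0.0537 to 0.303 ± 0.0703 CPM (1.87 ± 0.38, 0.0059). PERP also rose in SCC25 (0.39 ± 0.07, adjusted p = 0.0019), and PKP4, a relative of the plakophilins, rose in SCC6 (0.45 ± 0.11, 0.012) and fell in SCC25 (-0.14 ± 0.04, 0.043). The list had a median log2 fold change of 0.30, 0.10 and 0.02 in SCC1, SCC6 and SCC25, and all genes 0.02, 0.00 and 0.01.

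Adherens junctions are the cadherin junctions tied to actin. In SCC1, 3 of 10 genes rose and 2 fell, with E-cadherin (CDH1) at 0.98 ± 0.10 (adjusted p = 1.3e-05) and β-catenin (CTNNB1) at -0.35 ± 0.06 (0.00046). In SCC6, 2 rose and 1 fell, with vinculin (VCL) at 0.31 ± 0.09 (0.020) and NECTIN4 at -1.19 ± 0.15 (0.00021), and in SCC25 1 rose and 1 fell, CDH1 at 0.44 ± 0.12 (0.029) and NECTIN1 at -0.36 ± 0.10 (0.022). In each line the counts of this list were near the shares of all genes.

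Keratins, the filaments that desmoplakin holds, changed in both directions. In SCC1, 7 of 10 tested rose and 2 fell, from KRT13 at 5.63 ± 0.73 (adjusted p = 0.00029) to KRT18, a keratin of simple epithelia, at -1.19 ± 0.12 (1.4e-05), and KRT5, the basal partner of KRT14, went from 549 ± 318 to 3252 ± 309 CPM (2.58 ± 0.38, 0.00057). In SCC6, 2 of 10 rose and 5 fell, with KRT5 at 2.35 ± 0.18 (9.2e-06) and KRT6B at -3.64 ± 0.87 (0.0089). In SCC25 KRT17 rose (0.73 ± 0.22, 0.038), KRT18 fell (-0.48 ± 0.07, 0.00089) and the other 9 of 11 did not pass. The median was 1.85 in SCC1, -0.68 in SCC6 and 0.21 in SCC25.

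Of the 6 hemidesmosome genes, which anchor keratin to the basement membrane, dystonin (DST) rose in each line, by 1.00 ± 0.07 (adjusted p = 4.3e-07) in SCC1, 0.51 ± 0.12 (0.0071) in SCC6 and 0.35 ± 0.07 (0.0053) in SCC25. In SCC1 2 rose and 3 fell, with plectin (PLEC) lowest at -0.52 ± 0.19 (0.049), and in SCC25 COL17A1 fell (-0.25 ± 0.06, 0.013). Among the proteases that cleave desmogleins and their inhibitor, 2 of 4, 2 of 5 and 1 of 6 rose in SCC1, SCC6 and SCC25 and none fell. SPINK5, an inhibitor of kallikreins, led in SCC1 (1.38 ± 0.19, 6.4e-05) and SCC25 (0.44 ± 0.11, 0.018), and KLK5 led in SCC6 (1.40 ± 0.40, 0.020).

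Of the 9 transcription factors of epithelial identity or its loss, 4 rose and 2 fell in SCC1, 3 rose and 4 fell in SCC6, and 1 rose and 2 fell of 8 tested in SCC25. GRHL2 rose most in SCC1 (0.80 ± 0.08, adjusted p = 6.5e-06) and in SCC25 (0.21 ± 0.06, 0.026), and TP63 in SCC6 (1.21 ± 0.16, 0.00025). ZEB1, a repressor of epithelial genes, fell most in SCC1, from 2.69 ± 0.544 to 0.598 ± 0.191 CPM (-2.15 ± 0.23, 8.7e-06), GRHL3 in SCC6 (-2.43 ± 0.58, 0.0084) and SNAI1 in SCC25 (-0.83 ± 0.17, 0.0066). Of the 8 squamous epithelial markers, some of which are also in the lists above, 6 rose and 1 fell in SCC1, and 3 rose and 1 fell in SCC6 and in SCC25. EPCAM, an adhesion molecule of simple epithelia, was the one that fell in SCC1 (-0.73 ± 0.11, 0.00015) and SCC6 (-0.93 ± 0.16, 0.0012), and SFN in SCC25 (-0.41 ± 0.12, 0.039).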

How the data were processed

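Poly(A) RNA of the 33 libraries was sequenced by the authors, who inferred gene-level estimated counts with Salmon 0.8.2 (version from the submitters' processing notes) and tximport and deposited them unnormalised in 1 table. The notes name GRCh37 (hg19), and the sources used here give no transcript annotation, strand setting or tximport option. No column of another series was present (0 used or left over).

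Estimated counts were rounded to whole numbers. Genes were filtered with filterByExpr (minimum count 10), scaled with TMM factors and tested with edgeR 4.0.16 in R 4.3.3 by the robust quasi-likelihood test, with Benjamini-Hochberg adjustment over all genes tested and a threshold of 0.05. Every adjusted p in the text is from this edgeR test unless DESeq2 1.42.0 is named. Groups followed line and treatment on days 1 to 5, with 5 libraries each. Day 0 entered only the PBS slopes and an alternative. Daily ratios added 0.1 CPM. Correlations left out genes whose log2 CPM averaged under 3 (DSG1 among the members for the mean profile). Shares, overlaps and daily ratios are descriptions.

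The labelled day paired the treated and control libraries. Deviations from the group means correlated by 0.11 to 0.39 in SCC1, 0.22 to 0.59 in SCC25 and -0.18 to 0.58 in SCC6 (9928 genes), negative or -0.0 on days 4 and 5 of SCC6. The scripts were tested on simulated data. Alternatives were DESeq2, its size factors, total counts alone, no filter, day as a replicate block, flow cell as a covariate, removal of the GC trend (spline with 5 degrees of freedom), day 0 added to PBS, 6 groups in 1 fit and leaving out each library. The paper names DESeq2 but no design. The members and the lists were chosen with earlier results of these data known. All 10 members are described, and the genes named from the lists are those with the largest rise and fall past the threshold, with a few added after their values were seen. Lists held other desmosome-associated genes, adherens junction, keratins, hemidesmosome, proteases and their inhibitor, transcription factors, and squamous, fibroblast, endothelial and leucocyte markers. Positions are from GENCODE lifted to GRCh37 and promoters from RefSeq on GRCh38.p14.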

Additional observations from a re-analysis of the deposited data

Results flagged for a closer look

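In 6 of 60 groups of 5 libraries, 1 library stood apart from the other 4 by more than 0.71 of the whole range or at that value, where chance gives about 3. PKP3 was highest in PBS day 1 of SCC6 (207.4 CPM, gap 0.887 of the range) and in cetuximab day 4 of SCC6 (158.9 CPM, 0.795). JUP was highest in PBS day 1 of SCC6 (1156 CPM, 0.71) and lowest in cetuximab day 3 of SCC25 (275.8 CPM, 0.812), the library in which PKP1 was also lowest (278.3 CPM, 0.816). DSG3 was lowest in cetuximab 2a of SCC6 (1.01 CPM, 0.74).

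The cetuximab response differed between the 3 lines for PKP1 (edgeR adjusted p = 2.1e-08), PKP2 (7.1e-08), DSG3 (2.1e-06), DSC3 (0.00063) and DSP (0.039). PKP2 fell by 0.61 in SCC1 and by 0.26 in SCC25 on the log2 scale and rose by 0.67 in SCC6, each in 5 of 5 treated libraries against the PBS library of the same labelled day.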

How the results depend on the processing

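Counts of desmosome genes past the threshold changed by over 1.5 times as follows. In SCC25 (2 called) 1 was called with no filter, with the flow cell as a covariate and with 6 groups in 1 fit, 4 with day as a replicate block, alone or with the GC trend removed, and 1 to 3 with 1 library left out. For SCC1 against SCC25 (4) the flow cell gave 2 and the replicate block of line and day 7, for SCC6 against SCC25 (3) the block gave 5, and for SCC1 against SCC6 (3) leaving out 1 library gave 3 to 5. Between days 4 to 5 and 1 to 3 (0 called), DESeq2 gave 1 in SCC1 and 4 in SCC6, no filter 4 in SCC6 and the block 3 in SCC6, and leaving out 1 library 0 to 2 in SCC6 and 0 to 1 in SCC25 (cetuximab day 3). In SCC6 the block called 13.9% of all genes in this test, where the first fit called 0.0%. The numbers of all genes that DESeq2 called are given with the period results. With no filter no share of all genes is given, so that count of members cannot be read alone. The PBS slopes without day 0 gave 0 in SCC1 (2) and 5 in SCC6 (8), and leaving out 1 library gave 0 to 4 in SCC1, 4 to 8 in SCC6 and 3 to 7 in SCC25 (6). The other counts stayed within 1.5 times under the alternatives run. The calls that the replicate block changed are given beside the results or in the counts above. The cause of these changes was not tested.

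Calls of single members ended in a few more settings. PKP2 in SCC25 had an adjusted p of 0.091 with 6 groups in 1 edgeR fit. DSG2 (-0.08) and PKP3 (-0.38) lost their difference between SCC1 and SCC6 with total counts alone, and PKP3 also with no filter, as it did between SCC6 and SCC25 with no filter (-0.53) or day 0 added (-0.24). The response of DSP was not shown to differ between the lines with no filter (adjusted p = 0.12) or the flow cell as a covariate (0.21). With the flow cell as a covariate DSG3 lost its difference in response between SCC25 and both SCC1 (1.49) and SCC6 (-1.0), and the call of its value in SCC6 (-0.84).

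Compared with the first edgeR fit of each comparison, direction changed only for values past the threshold in neither fit. Between alternatives, JUP and PKP3 in SCC6 also differed in direction, and were past the threshold with the GC trend removed and the replicate block. In SCC6, JUP became 0.22 with the replicate block and 0.05 with the flow cell, PKP3 0.28 and 0.15, and PKP1 0.05 with the flow cell. In SCC25 the flow cell gave -0.08 for DSG2, 0.03 for JUP and 0.17 for PKP3. Removing the GC trend, with or without the block, gave -0.02 for DSG2 and 0.04 for JUP. Adding day 0 gave 0.02 for DSP, 0.02 for JUP and 0.01 for PKP1, and total counts alone 0.03 for DSP. The PKP1 response of SCC6 minus SCC25 was 0.07 with the flow cell and 0.03 with the replicate block, and the PKP2 level of SCC1 over SCC25 was 0.01 with total counts alone. With 1 library left out, values in SCC6 ran from -0.03 to 0.11 for DSC2, -0.14 to 0.21 for JUP and -0.19 to 0.3 for PKP3, and in SCC25 from -0.06 to 0.05 for DSP, -0.12 to 0.07 for JUP and -0.11 to 0.05 for PKP1. The same range was -0.45 to 0.03 for PKP1 in SCC6 minus SCC25 and -0.09 to 0.0 for the PKP2 level in SCC1 over SCC25.

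Numbers of all genes called moved with these settings too. For the PBS slopes, leaving out 1 library gave 31 to 1779 genes in SCC1. Without PBS day 5 there were 3237 in SCC6 and 1327 in SCC25, and without day 0 there were 2077 in SCC6. The flow cell took SCC25 from 3474 to 1442 and the test between lines from 5563 to 3046. In SCC1 that fit rested on 1 PBS library, so its count is left out. The replicate block took SCC6 from 5226 to 7967, SCC25 to 5111 and the test between lines to 8953. Depth limits DSG1 (3.06 to 37.4 counts), and PKP1 and DSG3 in SCC6, whose low levels leave wide errors.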
